A study of Mus musculus with 7 samples.

Results

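The DNA replication and mitosis genes are 45 genes chosen by symbol, of the 22447 genes with a unique symbol in each library. They comprise 19 replication genes, 6 regulators of the step from G1 to S phase and 20 mitotic genes, and all 45 were found. RNA was sequenced from 7 libraries of mouse lung. The 3 tumors (OE tumors) and 2 lungs labelled normal (OE normal lung) both carry EZH2 overexpression, and 2 further normal lungs are wild type (WT lung). No treatment or time is labelled for any group, and the labels give neither the age or strain of the mice nor the promoter that drives the overexpression. The source is labelled lung tissue, but the growth text speaks of tumor nodules that were minced and then cultured, and which of these gave the RNA is not stated. Nothing in the labels ties replicates to separate animals. The p-values therefore reflect the spread between these samples, which may be technical.

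Cells entering S phase load the MCM helicase onto replication origins, activate it and copy the DNA behind it with a sliding clamp and polymerases. Cyclin D kinases start this step by inactivating RB, which releases E2F factors that switch on most replication genes. The mitotic genes come on later, in G2 and M phase, under the DREAM and MYB-FOXM1 complexes, which bind a short element called the cell cycle homology region (CHR) near sites of the factor NF-Y. In resting adult lung few cells divide, so transcripts of both kinds are known to be low there.

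Levels are given as FPKM, fragments scaled to transcript length and to the mapped total, so that values are per length and can be set beside each other. Differences are on the log2(FPKM + 1) scale with the standard error (SE) and the Benjamini-Hochberg adjusted p of limma, a linear model fitted across the 14057 genes that reached 1 FPKM in 2 or more libraries. This scale understates the change of genes with low levels. A gene is called higher or lower when its adjusted p is under 0.05. Of the 45 members 43 were tested, and Cdc6 and Cenpe were below the minimum.

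The FPKM sum of a library lay between 405166 and 503550. Tumors had 12028 to 12625 genes at 1 FPKM or more, and normal lungs 13203 to 13567. Absolute depth is unknown. A rough relative depth was taken as the most common ratio between tumor 1 and each other library over genes with low values. It was lowest for tumor 1, with the others 1.20 to 1.87 times deeper. The most common ratio held only 62 to 189 genes, of 2156 to 2794 with low values. Ezh2, the histone methyltransferase that is overexpressed, stood at 8.48, 23.5 and 22.6 FPKM in tumors 1, 2 and 3, at 10.2 and 11.5 FPKM in OE normal lung and at 3.72 and 2.58 FPKM in WT lung. All 5 OE libraries were above both WT lungs, and tumor 1 was below both OE normal lungs. Normal lung is a mixture of cells, and markers of several of them were lower in the tumors while most alveolar type 2 markers were higher. The summed level of 8 endothelial markers was 111 to 128 FPKM in tumors and 979 to 1276 FPKM in normal lungs, and 7 ciliated cell markers summed to 6.75 to 18.7 against 319 to 472 FPKM. In the tumors 6 B and plasma cell markers summed to 19.5 to 55.5 FPKM against 129 to 824 FPKM, and 7 T and NK cell markers to 6.33 to 16.0 against 28.7 to 129 FPKM. The 8 alveolar type 2 markers summed to 12616 to 43520 FPKM in the tumors against 12605 to 19200 FPKM. Sftpc dominates this sum where it is above 0, and stood at 35944, 0 and 0 FPKM in tumors 1, 2 and 3. The FPKM alone does not tell whether these 0 values mean that the transcript was absent. Of these 8 markers 6 were called higher in the tumors against all normal lung (limma) and 0 lower. Sftpb, a surfactant protein gene, was at 2664 to 6954 FPKM in tumors and 749 to 1386 FPKM in normal lungs, and the phosphate transporter Slc34a2 at 861 to 1276 and 180 to 319 FPKM. The part of this in the members' levels was not tested. In tumors and normal lungs, macrophage markers summed to 630 to 2540 and 2362 to 4135 FPKM, fibroblast markers to 71.6 to 375 and 222 to 253 FPKM, and erythroid markers to 26.3 to 66.7 and 564 to 2083 FPKM. Lyz2 dominates the macrophage sum, at 577 to 2400 FPKM in tumors and 2312 to 4003 FPKM in normal lungs, and Hba-a1 the erythroid sum. Of the 6 macrophage markers 1 was called lower in the tumors against all normal lung (limma) and 0 higher. The ranges of tumors and normal lungs overlapped for each of the 6. No listed marker was at 0 in all 7 libraries. In such bulk samples, fewer cells of a type and less RNA per cell cannot be told apart.

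The promoters of the members differed by role in the short sequences they hold. RefSeq promoter windows (build GRCm38.p6, 250 bases before to 50 bases after an annotated start) were found for 35 members, which have 37 windows. The motifs counted were of 3 kinds, taken on both strands: the E2F octamers TTTCGCGC, TTTGGCGC, TTTCCCGC and TTTGCCGC, the CHR hexamers TTTGAA or else TTCGAA, and the NF-Y box CCAAT. An E2F octamer stood in 8 of 17 replication windows (47.1%), in 1 of 16 mitotic windows (6.25%) and in 2.26% of all 32851 windows. A CHR hexamer stood in 3 of 17 replication windows (17.6%), in 12 of 16 mitotic windows (75%) and in 19.2% of all windows. The NF-Y box stood in 64.7% of replication windows, 87.5% of mitotic windows and 37.4% of all windows. In the mitotic windows CHR and NF-Y matches came together in 75%, against 7.52% of all windows. None of the 4 windows of the G1/S genes Ccnd3, Ccne1 and E2f1 held an E2F octamer or a CHR hexamer. A match is a description of the letters and was not tested as a site. No window was used for Mcm4, Gins2, Pole, Ccnd1, Ccnd2, Ccne2, Ccna2, Aurkb, Kif20a and Tpx2.

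Stretches before the annotated start are shown for 5 members on whose levels the results below turn. Mcm7 and Rfc3 are the replication genes called higher in all 3 tumor comparisons, Mcm6 has the most E2F octamers of the replication windows, and Cdk1 and Ube2c are mitotic genes called higher. They run 5′ to 3′ on the gene's strand, and capitals mark the E2F octamers, CHR hexamers and NF-Y boxes on either strand, some of which overlap. Mcm7 lies at chr5:138171897-138172064 (minus strand), Rfc3 at chr5:151651209-151651445 (minus), Mcm6 at chr1:128359707-128359823 (minus), Cdk1 at chr10:69352914-69353128 (minus) and Ube2c at chr2:164769693-164769913 (plus).
Mcm7: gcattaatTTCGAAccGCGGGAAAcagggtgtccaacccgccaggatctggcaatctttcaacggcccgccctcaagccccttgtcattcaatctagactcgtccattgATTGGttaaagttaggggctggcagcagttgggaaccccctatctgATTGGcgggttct
Rfc3: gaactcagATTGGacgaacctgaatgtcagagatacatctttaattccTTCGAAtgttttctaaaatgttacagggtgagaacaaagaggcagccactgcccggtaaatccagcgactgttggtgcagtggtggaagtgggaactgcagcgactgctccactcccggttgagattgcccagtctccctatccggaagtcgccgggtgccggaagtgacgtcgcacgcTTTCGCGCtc
Mcm6: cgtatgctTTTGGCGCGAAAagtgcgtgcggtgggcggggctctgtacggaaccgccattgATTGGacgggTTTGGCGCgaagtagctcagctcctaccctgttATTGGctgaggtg
Cdk1: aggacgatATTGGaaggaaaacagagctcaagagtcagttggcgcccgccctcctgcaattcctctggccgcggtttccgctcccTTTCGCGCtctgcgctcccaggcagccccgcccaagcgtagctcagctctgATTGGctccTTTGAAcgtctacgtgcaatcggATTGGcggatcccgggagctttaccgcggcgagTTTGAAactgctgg
Ube2c: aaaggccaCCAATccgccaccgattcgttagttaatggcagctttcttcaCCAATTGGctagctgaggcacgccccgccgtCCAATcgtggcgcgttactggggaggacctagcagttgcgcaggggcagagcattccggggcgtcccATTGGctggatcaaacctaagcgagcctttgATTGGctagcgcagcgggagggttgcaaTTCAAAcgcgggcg
Cdk1 was the only mitotic window with an E2F octamer, and its stretch also holds 2 CHR hexamers and 3 NF-Y boxes. Mcm7 and Rfc3 each hold a CHR hexamer and an E2F octamer, which are close together in Mcm7 and at opposite ends of the stretch shown in Rfc3.

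**Figure D1:**
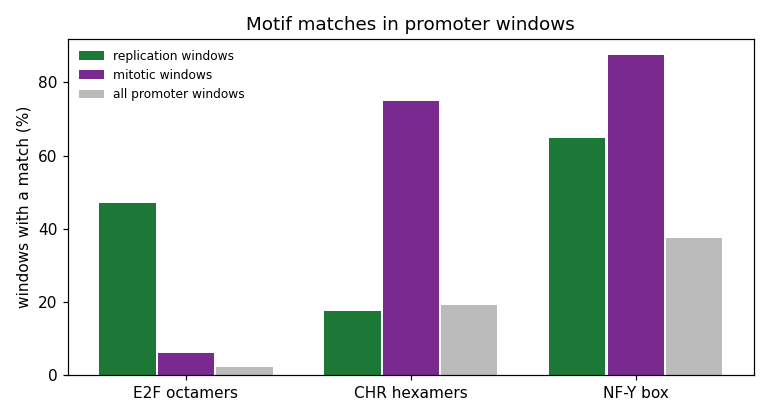
Bars give the percent of promoter windows with at least 1 match on either strand (vertical axis) for 3 kinds of motif, in the 17 replication windows, the 16 mitotic windows and all windows of the table. E2F octamers stand highest in the replication windows at 47.1%, and CHR hexamers highest in the mitotic windows at 75%.

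The D-type cyclins, which partner CDK4 and CDK6 to phosphorylate RB, moved in opposite directions in the tumors. Ccnd1 was higher and Ccnd2 and Ccnd3 were lower, and Ccnd1 had the highest difference of all members tested on the log2(FPKM + 1) scale. As a ratio of mean FPKM over all normal lung Ccnd1 was 2.98-fold and Mad2l1 2.50-fold higher, while over WT lung Mad2l1 (3.26-fold), Cdt1, Bub1b, Cdk1 and Ccnb1 were above Ccnd1 (2.90-fold). Ccnd1 stood at 84.3, 214 and 191 FPKM in tumors 1, 2 and 3, at 60.9 and 45.1 FPKM in OE normal lung and at 55.4 and 57.3 FPKM in WT lung. Every tumor lay above every normal lung, and tumor 1 was the lowest of the tumors. The mean was 163 ± 69.2 FPKM (SD, n = 3) in the tumors and 54.7 ± 6.81 FPKM (SD, n = 4) in the normal lungs together. In limma the difference of Ccnd1 was 1.46 against all normal lung (SE 0.32, adjusted p = 0.00809), 1.51 against OE normal lung (SE 0.41, adjusted p = 0.0294) and 1.41 against WT lung (SE 0.41, adjusted p = 0.0370). The call against all normal lung held without any 1 library. Those against OE normal and against WT lung were each lost in 6 of the 7 omissions, all but that of tumor 1 (limma adjusted p up to 0.163 and 0.157).

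Ccnd2 stood at 10.0, 2.19 and 2.57 FPKM in tumors 1, 2 and 3, at 20.1 and 23.9 FPKM in OE normal lung and at 19.0 and 15.3 FPKM in WT lung. All tumors were below all normal lungs, tumor 1 being nearest to them. Its difference in limma was -2.02 against all normal lung (SE 0.42, adjusted p = 0.00709), -2.20 against OE normal lung (SE 0.53, adjusted p = 0.0208) and -1.85 against WT lung (SE 0.53, adjusted p = 0.0370). The first call held without any 1 library. The second was lost without tumor 2, tumor 3 or either OE normal lung (adjusted p up to 0.117), and the third in every omission but that of tumor 1 (up to 0.174). Ccnd3 stood at 39.0, 41.8 and 52.8 FPKM in the tumors, at 70.0 and 70.3 FPKM in OE normal lung and at 77.1 and 79.0 FPKM in WT lung. The groups did not overlap here either, and Ccnd3 differed by -0.73 against all normal lung (SE 0.12, adjusted p = 0.00289). Against OE normal lung its difference was -0.66 (SE 0.15, adjusted p = 0.0169), and against WT lung -0.81 (SE 0.15, adjusted p = 0.00819). Only the call against all normal lung held in each omission of 1 library. That against OE normal lung was lost without tumor 2 or either OE normal lung (adjusted p up to 0.0898), and that against WT lung without either WT lung (up to 0.0693). Over all genes tested, 19.0% were called higher and 28.2% lower against all normal lung. Ccnd1 thus made up 63.2%, 83.0% and 77.5% of the summed D-cyclin level in tumors 1, 2 and 3, against 32.3% to 40.4% in the 4 normal lungs, where Ccnd3 held the largest part. The exact 2-sided permutation test over libraries gave p = 0.0571 for each D-type cyclin in the tumors against the 4 normal lungs, the smallest p that 3 against 4 libraries allow. T, B, endothelial and ciliated cell markers were also lower in the tumors (above), and their part in the fall of Ccnd2 and Ccnd3 was not tested.

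The other G1/S regulators showed no call in any of the 4 comparisons. E2f1, the best known of the E2F activators, ranged from 3.13 to 4.38 FPKM, with the 3 tumors at 3.82, 3.35 and 3.13 FPKM and OE normal lung at 4.38 and 4.06 FPKM. Ccne1, the cyclin that activates CDK2 at S phase entry, stood at 0.870, 2.65 and 2.34 FPKM in the tumors, 1.51 and 2.43 FPKM in OE normal lung and 0.996 and 0.636 FPKM in WT lung. Tumor 1 thus lay among the WT lungs for Ccne1. Ccne2 ranged from 1.27 to 2.32 FPKM.

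**Figure D2:**
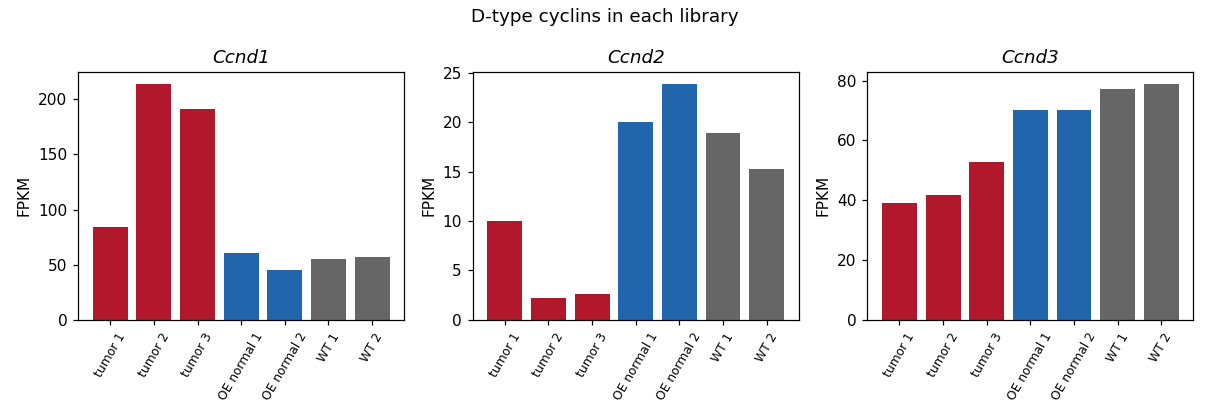
Bars give the FPKM of Ccnd1, Ccnd2 and Ccnd3 in each of the 7 libraries (3 tumors, 2 OE normal and 2 WT lungs), with a separate vertical axis from 0 for each gene. All tumors stand above all normal lungs for Ccnd1 and below them for Ccnd2 and Ccnd3, with tumor 1 at 84.3 and 10.0 FPKM for Ccnd1 and Ccnd2.

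Of the replication genes, the helicase subunit Mcm7 and the clamp loader subunit Rfc3 were called higher in the tumors against OE normal lung, against WT lung and against both together. Mcm7 stood at 19.3, 19.7 and 15.7 FPKM in the tumors, at 10.5 and 10.6 FPKM in OE normal lung and at 9.72 and 8.28 FPKM in WT lung. The tumors were close to each other and far above the normal lungs, with a difference of 0.84 against all normal lung (limma, SE 0.13, adjusted p = 0.00171). It was 0.73 against OE normal lung (SE 0.14, adjusted p = 0.00989) and 0.94 against WT lung (SE 0.14, adjusted p = 0.00404). Rfc3 stood at 11.9, 12.3 and 10.1 FPKM in the tumors, at 6.18 and 7.73 FPKM in OE normal lung and at 5.32 and 5.38 FPKM in WT lung. Its groups were separate too, with a difference of 0.81 against all normal lung (SE 0.15, adjusted p = 0.00399). It was 0.65 against OE normal lung (SE 0.15, adjusted p = 0.0173) and 0.97 against WT lung (SE 0.15, adjusted p = 0.00410). The exact permutation p of each was 0.0571 against all normal lung. Both genes stayed called against WT lung and against all normal lung in each omission of 1 library. Against OE normal lung the call of Mcm7 was lost without OE normal 1 or OE normal 2 (limma adjusted p up to 0.0628), and that of Rfc3 without tumor 2 or OE normal 1 (up to 0.119).

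Against OE normal lung 2 of the 18 replication genes tested were called higher, as were 13.1% of all genes tested, and none was called lower, as were 24.9% of all genes. In limma 4 of the 18 had an unadjusted p under 0.05 in the higher direction and 0 in the lower. Against WT lung 8 of 18 were called higher, with 15.0% of all genes higher and 23.2% lower. Against all normal lung 6 of 18 were called higher, a share of 33.3% beside the 19.0% of all genes. This count was 2 of 18 without tumor 2 or without tumor 3, 3 without either WT lung and 10 without tumor 1. It was 4 without OE normal 1 and 7 without OE normal 2. Without tumor 2, tumor 3, WT 1 or WT 2 the count is a share near that of all genes. Of the 14057 genes 1724, 1813, 2008 and 2076 were then called higher. The genes called higher numbered 2154 without OE normal 1, 2264 without OE normal 2 and 3821 without tumor 1. The count against OE normal lung was 1 without tumor 2 and 7 without tumor 1, and against WT lung 4 without tumor 2 or tumor 3 and 14 without tumor 1. Without tumor 1, 2 or 3, all genes called higher against OE normal lung numbered 3755, 1039 and 1112. Against WT lung they numbered 3991, 1201 and 1269, so the counts of all genes moved with these omissions too. The median difference of the 18 was 0.25 against OE normal lung, 0.62 against WT lung and 0.42 against all normal lung. That of all genes tested was -0.11, -0.06 and -0.08. The median of the 18 against OE normal lung was 0.10 without OE normal 1, 0.42 without tumor 1, 0.41 without OE normal 2 and 0.06 after rescaling to TPM. It was 0.27 against all normal lung without WT 2, and against WT lung 0.97 without WT 1 and 0.44 without WT 2. The 3 tumor comparisons share the tumors, and the last shares its controls with the others.

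The licensing factors load the helicase. Cdt1 stood at 4.46, 8.48 and 7.96 FPKM in the tumors, at 4.03 and 4.71 FPKM in OE normal lung and at 2.82 and 1.56 FPKM in WT lung. Tumor 1 lay between the OE normal lungs, and the WT lungs were the lowest. Cdt1 was called higher against WT lung (1.31, SE 0.30, adjusted p = 0.0173) and against all normal lung (0.92, SE 0.32, adjusted p = 0.0497). The latter call was lost in 5 of 7 omissions, those of tumor 2, tumor 3, OE normal 1, WT 1 or WT 2 (adjusted p up to 0.158), and also without a filter, with one at 5 FPKM, with a pseudocount of 0.1, after rescaling to TPM and with the replicate block (up to 0.188). The former was lost without tumor 2, tumor 3 or WT 2 (up to 0.124). Cdc6, its partner, ranged from 0.394 to 0.886 FPKM and was not tested.

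The 6 MCM subunits form one ring, yet their levels did not move alike. Summed over the ring, they reached 53.3, 80.4 and 68.2 FPKM in tumors 1, 2 and 3, against 47.9 and 58.3 FPKM in OE normal lung and 43.3 and 37.3 FPKM in WT lung. Tumor 1 was below OE normal 2 in this sum. Mcm2 was called higher against WT lung (0.94, SE 0.20, adjusted p = 0.0137) and against all normal lung (0.72, SE 0.20, adjusted p = 0.0218), and Mcm5 against WT lung (0.91, SE 0.25, adjusted p = 0.0297). Mcm6 stood at 6.11, 19.7 and 15.9 FPKM in the tumors, at 9.40 and 14.9 FPKM in OE normal lung and at 8.72 and 8.42 FPKM in WT lung. Tumor 1 was the lowest of all 7 libraries for Mcm6 and tumor 2 the highest, so the gene spanned the normal lungs. Mcm3 and Mcm4 were not called in any comparison, and Mcm4 ranged from 6.66 to 9.16 FPKM in the tumors and from 6.51 to 9.69 FPKM in the normal lungs. Gins2, a subunit of the GINS complex that activates the helicase, stood at 3.86, 5.64 and 4.68 FPKM in the tumors, at 2.62 and 2.65 FPKM in OE normal lung and at 2.45 and 1.17 FPKM in WT lung. It was called higher against WT lung (1.05, SE 0.24, adjusted p = 0.0170) and against all normal lung (0.85, SE 0.22, adjusted p = 0.0174). Without tumor 2 or tumor 3 neither call of Gins2 held, and without WT 2 that against WT lung was lost (adjusted p up to 0.106). Of Mcm2, the call against all normal lung was lost without tumor 2, tumor 3, WT 1 or WT 2 (up to 0.0840) and that against WT lung without either WT lung (up to 0.103). The call of Mcm5 was lost in 5 of 7 omissions, all but those of tumor 1 and WT 1 (up to 0.193).

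The sliding clamp Pcna was the most abundant replication gene, at 60.1, 67.8 and 71.3 FPKM in the tumors, 53.7 and 67.2 FPKM in OE normal lung and 60.1 and 53.1 FPKM in WT lung. The groups overlapped and Pcna was not called (0.18 against all normal lung, limma, SE 0.12, adjusted p = 0.239). Rfc4, another clamp loader subunit, was called higher against WT lung (0.85, SE 0.24, adjusted p = 0.0332) and against all normal lung (0.68, SE 0.21, adjusted p = 0.0314). Against all normal lung the call of Rfc4 was lost in 5 of 7 omissions, all but those of tumor 1 and OE normal 2 (adjusted p up to 0.111), and against WT lung in all but that of tumor 1 (up to 0.212). The polymerase and primase subunits Pold1, Pole and Prim1 were not called in any comparison. Of the 4 enzymes that supply nucleotides, Tk1, thymidine kinase, was called higher against WT lung (1.01, SE 0.22, adjusted p = 0.0155). It stood at 6.88, 6.24 and 6.03 FPKM in the tumors and at 6.38 and 6.05 FPKM in OE normal lung, and at 3.70 and 1.85 FPKM in WT lung. OE normal lung was within the range of the tumors for Tk1, and the call was lost without WT 2 (adjusted p = 0.0757). Rrm1, Rrm2 and Tyms were not called in any comparison.

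**Figure D3:**
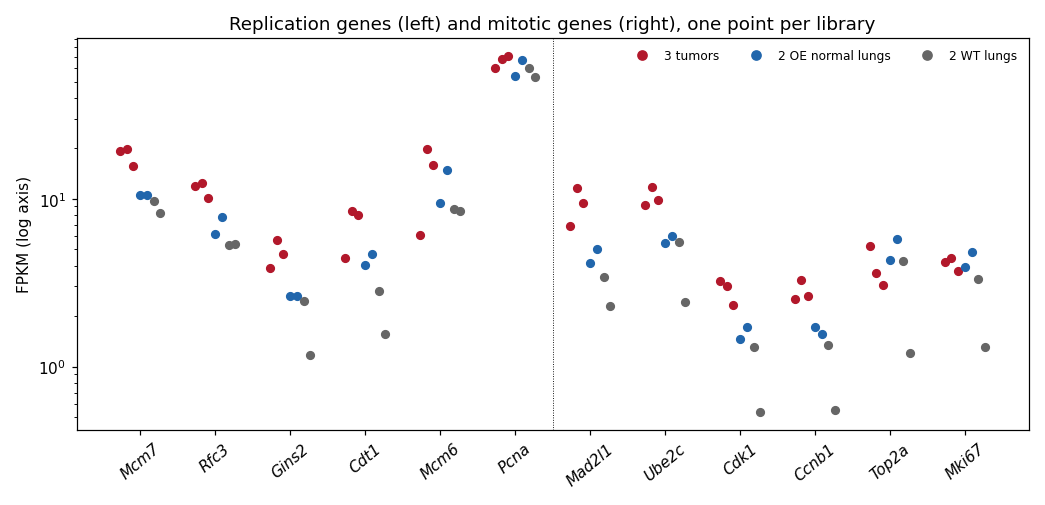
Points give the FPKM (log axis) of 6 replication genes (left) and 6 mitotic genes (right) in each library, coloured by group. The tumors stand apart from all normal lungs for Mcm7 and Rfc3, while those of Mki67 overlap the OE normal lungs.

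Of the mitotic genes, the checkpoint gene Mad2l1 was the only one called higher in the tumors against OE normal lung. Mad2l1, which holds back anaphase until chromosomes are attached, stood at 6.91, 11.5 and 9.49 FPKM in the tumors, at 4.17 and 5.02 FPKM in OE normal lung and at 3.41 and 2.31 FPKM in WT lung. All tumors lay above all normal lungs, with tumor 1 the lowest of them. Its difference was 1.13 against all normal lung (limma, SE 0.24, adjusted p = 0.00788), 0.86 against OE normal lung (SE 0.24, adjusted p = 0.0334) and 1.41 against WT lung (SE 0.24, adjusted p = 0.00596). The call against all normal lung held in each omission of 1 library. That against OE normal lung was lost in every omission but that of tumor 1 (adjusted p up to 0.175), and that against WT lung without WT 2 (0.0567). That 1 call of 19 tested compares with 13.1% of all genes called higher, and 4 of the 19 had an unadjusted p under 0.05. None was called lower in limma, and 0 had an unadjusted p under 0.05 in that direction.

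Against WT lung 8 of 19 mitotic genes were called higher beside 15.0% of all genes, and against all normal lung 4 of 19, a share of 21.1% that is near the 19.0% of all genes. The median difference of the 19 was 0.27 against OE normal lung, 0.70 against WT lung and 0.38 against all normal lung. It was 0.16 without OE normal 1 against OE normal lung, 0.24 without WT 2 against all normal lung and 1.14 without WT 1 against WT lung. Of the 19, 1 was called against all normal lung without tumor 2, 2 without tumor 3 and 6 without tumor 1. Of all genes 1724, 1813 and 3821 were then called higher, and those without a tumor in the other comparisons are given above. Counts without a WT lung against WT lung, or without an OE normal lung against OE normal lung, rest on 1 library in that group and are left out here. Against WT lung 3 were called without tumor 2 and 4 without tumor 3 or either OE normal lung. Of all genes 1619 were called higher against WT lung without either OE normal lung. In the comparison with OE normal lung 2 were called without tumor 1 and 0 without tumor 2 or tumor 3. Without WT 2 the medians against WT lung were lower, at 0.44 for replication and 0.32 for mitotic genes.

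The kinase Cdk1 and its B-type cyclins drive entry into mitosis. Cdk1 stood at 3.26, 3.02 and 2.34 FPKM in the tumors, at 1.46 and 1.73 FPKM in OE normal lung and at 1.31 and 0.535 FPKM in WT lung. Every tumor was above every normal lung, and WT 2 was the lowest. Cdk1 was called higher against WT lung (1.03, SE 0.22, adjusted p = 0.0131) and against all normal lung (0.80, SE 0.22, adjusted p = 0.0200), and was not called against OE normal lung (0.57, SE 0.22, adjusted p = 0.0845). Ccnb1 was called higher against WT lung (1.00, SE 0.21, adjusted p = 0.0129) and against all normal lung (0.76, SE 0.21, adjusted p = 0.0238), and Ccnb2 against WT lung (0.81, SE 0.22, adjusted p = 0.0308). Without WT 2 all 3 calls against WT lung were lost (adjusted p 0.0861 for Cdk1 and 0.0807 for Ccnb1). That of Ccnb2 was also lost without tumor 2, tumor 3 or either OE normal lung (up to 0.167). Against all normal lung Cdk1 lost its call without tumor 2 (0.0690), and Ccnb1 without tumor 2, tumor 3 or WT 1 (up to 0.0894). Ccna2, the cyclin of S and G2 phase, was not called in any comparison.

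Ube2c, the enzyme that supplies ubiquitin to the anaphase-promoting complex, stood at 9.17, 11.7 and 9.86 FPKM in the tumors, at 5.46 and 5.99 FPKM in OE normal lung and at 5.51 and 2.44 FPKM in WT lung. The tumors did not overlap the normal lungs, and WT 2 lay far below WT 1. Ube2c was called higher against WT lung (1.24, SE 0.28, adjusted p = 0.0161) and against all normal lung (0.99, SE 0.26, adjusted p = 0.0179). The first call was lost without tumor 2 or WT 2 (adjusted p up to 0.0649) and the second without tumor 2 or tumor 3 (up to 0.0675). The checkpoint genes Bub1 (0.45, SE 0.14, adjusted p = 0.0493) and Bub1b (1.16, SE 0.35, adjusted p = 0.0444) were called higher against WT lung. The spindle factor Tpx2 (0.70, SE 0.20, adjusted p = 0.0361) was as well. Each of these 3 calls was lost without tumor 2, tumor 3, either OE normal lung or WT 2, and that of Bub1 also without WT 1 (adjusted p up to 0.276). The APC activator Cdc20, the kinases Aurka, Aurkb and Plk1, the motors Kif11 and Kif20a, survivin (Birc5) and the centromeric histone Cenpa were not called in any comparison. Cenpe, a motor of the kinetochore, ranged from 0.236 to 0.913 FPKM and was not tested.

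Mki67 and Top2a, which are widely used as marks of dividing cells, were not called in any comparison. Mki67 stood at 4.22, 4.42 and 3.72 FPKM in the tumors, at 3.94 and 4.83 FPKM in OE normal lung and at 3.33 and 1.31 FPKM in WT lung. The tumors overlapped the OE normal lungs, and the difference from them was -0.07 (limma, SE 0.27, adjusted p = 0.853). The exact permutation p of Mki67 against all normal lung was 0.514. Top2a stood at 5.26, 3.63 and 3.06 FPKM in the tumors, at 4.33 and 5.74 FPKM in OE normal lung and at 4.27 and 1.21 FPKM in WT lung, with OE normal 2 the highest of all.

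**Figure D4:**
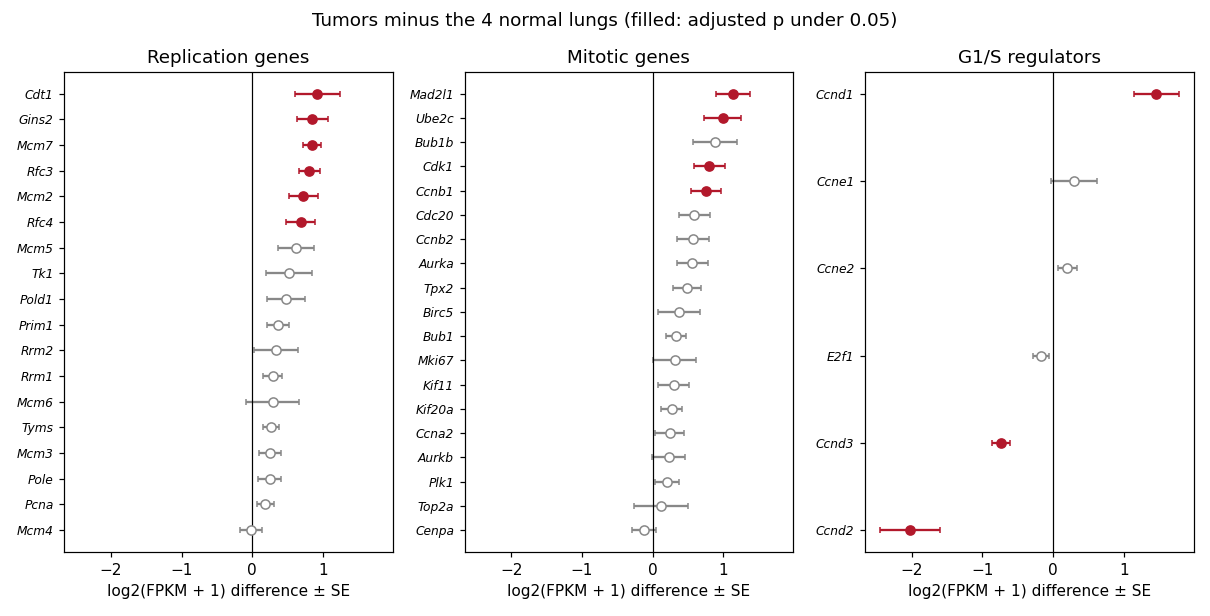
Each point is the log2(FPKM + 1) difference of 1 member tested, with its SE as a bar, for the 3 tumors minus the 4 normal lungs, in a panel per role. Filled points have an adjusted p under 0.05, of which Ccnd1 at 1.46 lies farthest above 0 and Ccnd2 at -2.02 farthest below.

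Across all 45 members, every tumor was above every normal lung for 7 of 19 replication genes, 10 of 20 mitotic genes and 1 of 6 G1/S genes. Of the members tested 17 of 43 did so, beside 21.9% of all genes tested. All tumors were below all normal lungs for 2 members, Ccnd2 and Ccnd3, beside 30.0% of all genes.

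Replication and mitotic genes were then compared within each library, as medians of the differences from the mean of the 2 WT lungs. These medians are descriptions and carry no test. The replication median was 0.37, 0.97 and 0.75 in tumors 1, 2 and 3, 0.18 and 0.45 in OE normal lung and 0.13 and -0.13 in WT lung. The mitotic median was 0.65, 0.75 and 0.57 in the tumors, 0.42 and 0.50 in OE normal lung and 0.30 and -0.30 in WT lung. The 2 WT values mirror each other by construction, since the mean of the WT lungs is the zero for every library. Tumor 1 was below OE normal 2 for the replication genes, while all tumors were above all normal lungs for the mitotic genes. The replication median minus the mitotic median was -0.29 in tumor 1 and 0.22 and 0.18 in tumors 2 and 3. Its mean was 0.04 ± 0.28 (SD, n = 3) in the tumors and -0.15 ± 0.13 (SD, n = 2) in OE normal lung. The groups thus differed by less than the spread of the tumors. The sign in the tumors depended on the scale, at -0.11 with a pseudocount of 0.1, -0.04 with TPM and -0.13 with quantile normalization. Mitotic genes had lower levels (median of mean FPKM 2.54, against 6.05 for replication genes), so log2(FPKM + 1) understates their changes more. It was 0.06 with median-of-ratios scaling and -0.03 with means over the genes in place of medians. In OE normal lung these settings gave -0.31, -0.21, -0.08, -0.16 and -0.07. Tumor 1 was the lowest tumor for 13 of 19 replication genes and for 6 of 20 mitotic genes, beside 36.2% of all genes tested. Tumor 1 also had the lowest estimate of relative depth and the lowest Ezh2 of the tumors. Sftpc was at 35944 FPKM in tumor 1 and given as 0 FPKM in tumors 2 and 3, which may not mean absence (above). Fibroblast markers summed to 375 FPKM in tumor 1 and to 71.6 and 96.2 FPKM in tumors 2 and 3, and macrophage markers to 2540, 630 and 795 FPKM. The part of these in its replication levels was not tested.

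**Figure D5:**
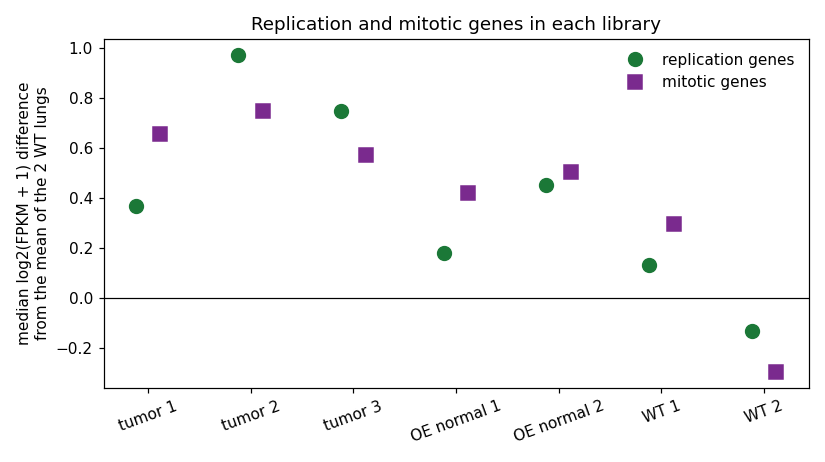
Circles give the median of 19 replication genes and squares that of 20 mitotic genes in each library, as the log2(FPKM + 1) difference from the mean of the 2 WT lungs. The circle lies below the square in tumor 1 (0.37 and 0.65) and above it in tumors 2 and 3, and WT 2 is the lowest library for both.

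Between OE normal and WT lung no member was called. Limma called 0 of the 14057 genes higher and 0 lower (0% in either direction), the lowest adjusted p was 0.102, and 1208 genes (8.59%) had an unadjusted p under 0.05. Among the 43 members tested 4 had an unadjusted p under 0.05, all higher in OE normal lung. The replication genes with the largest differences were Tk1 (0.98, SE 0.25, adjusted p = 0.296) and Cdt1 (0.78, SE 0.33, adjusted p = 0.592). The mitotic genes with the largest were Top2a (0.81, SE 0.43, adjusted p = 0.727) and Birc5 (0.78, SE 0.28, adjusted p = 0.483), and the G1/S genes with the largest were Ccne1 (0.70, SE 0.36, adjusted p = 0.708) and Ccnd2 (0.35, SE 0.58, adjusted p = 1). Both OE normal lungs were above both WT lungs for 28 of 45 members, beside 29.6% of all genes tested, and below them for 2, beside 23.1%. The median difference was 0.33 for the replication genes and 0.48 for the mitotic genes, and 0.02 for all genes tested.

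These medians turned on 1 library. WT 2 was the lowest of all 7 libraries for 16 of 19 replication genes, 19 of 20 mitotic genes and 1 of 6 G1/S genes, beside 14.9% of all genes tested. Without WT 2 the medians of OE normal against WT lung were 0.15 for the replication genes and 0.15 for the mitotic genes. T and NK cell markers summed to 64.9 and 129 FPKM in OE normal lung and to 45.2 and 28.7 FPKM in WT lung, and B and plasma cell markers to 534 and 824 FPKM and to 374 and 129 FPKM. OE normal 2 was the highest and WT 2 the lowest normal lung in both sums and in the mitotic median. The part of these cells in the members' levels was not tested.

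Among 121 further genes of the same pathways, all found in the files, 107 were tested. Against all normal lung 14 of 48 other mitotic genes were called higher and none lower (2 had an unadjusted p under 0.05 in the lower direction). Of 38 other replication genes 8 were called higher and 3 lower, and of 21 other G1/S and E2F or RB genes 6 were higher and 4 lower, beside the 19.0% and 28.2% of all genes. Against WT lung the counts were 22 higher and 0 lower of the mitotic, 8 and 2 of the replication and 7 and 2 of the G1/S genes. Against OE normal lung they were 8 and 0, 4 and 2, and 5 and 6. Of all genes 15.0% were called higher and 23.2% lower against WT lung, and 13.1% and 24.9% against OE normal lung. Higher against OE normal lung were 16.7% of the mitotic, 10.5% of the replication and 23.8% of the G1/S genes. The first is near the share of all genes and the second below it. In the lower direction 0 mitotic genes had an unadjusted p under 0.05 against WT lung and 3 against OE normal lung.

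Cks1b, a small subunit that binds cyclin-dependent kinases and aids the breakdown of p27, stood at 22.9, 34.7 and 33.8 FPKM in the tumors, at 8.09 and 7.09 FPKM in OE normal lung and at 8.78 and 5.37 FPKM in WT lung. The groups were far apart, and Cks1b differed by 1.91 against all normal lung (limma, SE 0.20, adjusted p = 3.32e-04). Cks1b was counted in the mitotic list. Of the called genes there, the microtubule protein Ckap2 (1.34, SE 0.23, adjusted p = 0.00289) and the cohesin protector Sgol2 (1.27, SE 0.17, adjusted p = 8.33e-04) had the next largest differences. E2f3, an E2F activator, stood at 5.99, 6.20 and 5.40 FPKM in the tumors, at 2.30 and 2.15 FPKM in OE normal lung and at 2.04 and 1.68 FPKM in WT lung. It differed by 1.18 (SE 0.12, adjusted p = 2.74e-04), unlike E2f1, which was not called. Rb1, which encodes RB, was lower at 7.05, 4.33 and 4.37 FPKM against 9.92 to 12.9 FPKM in the normal lungs (-0.98, SE 0.18, adjusted p = 0.00399). Cdk6, a partner of the D-type cyclins, was lower as well and fell by 1.00 on the log2 scale (SE 0.24, adjusted p = 0.0121). Its call was lost without tumor 3 (adjusted p = 0.0502), with quantile normalization and with the replicate block (up to 0.0641). Over the alternatives the difference of Cdk6 ranged from -1.71 to -0.43.

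In the replication list the chromatin assembly subunit Chaf1b (1.39, SE 0.25, adjusted p = 0.00364) and the primase subunit Prim2 (0.99, SE 0.14, adjusted p = 0.00129) were higher against all normal lung. Timeless, which steadies the replication fork, was lower (-0.88, SE 0.13, adjusted p = 0.00155), at 2.10 to 2.39 FPKM in the tumors and 3.99 to 5.67 FPKM in the normal lungs. Against WT lung the 3 with the largest differences were Chaf1b, Prim2 and Fen1, the flap endonuclease (0.95, SE 0.17, adjusted p = 0.00704). Among the G1/S genes against WT lung they were E2f3, the DREAM and MYB complex subunit Lin9 (1.10, SE 0.19, adjusted p = 0.00617) and the E2F partner Tfdp2 (-0.88, SE 0.17, adjusted p = 0.00855). Without WT 2 the calls of Chaf1b, Prim2, Fen1, Lin9 and Tfdp2 against WT lung were lost, and without WT 1 those of Chaf1b and Tfdp2 (adjusted p up to 0.102).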

How the data were processed

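RNA of 7 mouse lung libraries was sequenced. The deposited files hold 1 FPKM value for each of 22474 rows, for which the submitters' processing notes name TopHat, TopHat2, Cufflinks 2.0.0 and mouse build mm9. For the annotation, library normalization, strand setting and read totals nothing is given in the sources used here. In each file 27 rows carry a date in place of a symbol and were left out. No value column was left unused (0). Depth can be compared only relatively, so no counting intervals are given.

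Linear models were fitted to log2(FPKM + 1) in R 4.3.3 with limma 3.58.1 (2-sided, eBayes with trend). The 7 libraries in 3 groups share 1 spread, and a 2-group fit set the tumors against the 4 normal lungs. The procedure was tested on simulated data. Exact permutation tests used scipy 1.17.1 (smallest p 0.0571 for 3 against 4 libraries and 0.2 for 3 against 2), and promoter motifs and figures Python 3.11.15 and matplotlib 3.10.9. The files carry no coordinates, so RefSeq windows of GRCm38.p6 were joined by symbol.

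The members and lists were chosen with earlier results of these data known. A member is named with its statistics where it is called, or, where a role has no call in a comparison, the 2 with the largest difference. Of each other list up to 3 called genes per comparison with the largest differences are named. Alternatives were other pseudocounts, filters, scalings and variance models, only the groups compared, a block for replicate number and leaving out each library.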

Additional observations from a re-analysis of the deposited data

Results flagged for a closer look

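In the 4 normal lungs, 6 of the 45 members had 1 library far from the other 3, and that library was WT 2, low, in each case. The gap to the nearest other lung, as a share of the whole range of log2(FPKM + 1), was 0.902 for Rrm2, 0.931 for Cdc6, 0.893 for Gins2, 0.890 for Ube2c, 0.891 for Aurka and 0.907 for Cenpe, each above Dixon's 95% critical value for 4 values. Chance passes about 1 in 20 such groups, and the members' levels are not independent of each other. Only the 45 members were examined, so no share over all genes stands beside this count. The 4 lungs pool 2 OE normal and 2 WT lungs, so a difference between these groups can add to the gap.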

How the results depend on the processing

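Over 999 repeats of called genes under the alternatives, 811 calls were kept, 188 were lost and 0 changed direction. In every alternative run, Mcm7, Rfc3, Ccnd1, Ccnd2, Ccnd3 and Mad2l1 were called against all normal lung, and Mcm7 and Rfc3 against WT lung. Each of the 6 members called against OE normal lung lost its call in some alternative. Causes of the changes were not tested.

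Against OE normal lung 1844 genes and 4 members were called higher and 3506 genes and 2 members lower. Median-of-ratios scaling gave 7 members higher and 1 lower. Rescaling to TPM gave 1085 genes and 2 members higher, and quantile normalization 3390 genes and 21 members. Only the groups compared gave 1215 genes higher. Against WT lung (2115 genes and 17 members higher, 2 members lower), no filter gave 1 member lower, a filter at 5 FPKM 10 members higher, quantile normalization 3212 genes and 30 members higher, and only the groups compared 10 members higher and 1 lower. For OE normal against WT lung (0 genes), a pseudocount of 0.1 gave 1 gene lower, no filter 2 higher, and only the groups compared 1 higher and 2 lower. Against all normal lung (2674 genes and 11 members higher), the filter at 5 FPKM gave 7 members, median-of-ratios 21, TPM 1732 genes and 7 members, and quantile normalization 4153 genes and 28 members. Calls were higher rather than lower in 34.5% against OE normal lung (44.6% with median-of-ratios, 18.2% with TPM, 56.0% with quantile normalization) and 40.2% against all normal lung (49.9%, 26.2% and 58.6%). Against WT lung it was 39.4%, and 54.7% with quantile normalization. The median of all genes moved from -0.11 to -0.33 with TPM, 0.05 with median-of-ratios and 0.13 with quantile normalization against OE normal lung, and from -0.08 to -0.25, 0.04 and 0.12 against all normal lung. Both role medians stayed above these in every scaling. The replication minus mitotic median of OE normal lung was -0.31 with a pseudocount of 0.1.

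The replicate block, in which tumor 3 has no partner, gave 814 genes and 1 member higher and 2316 genes and 1 member lower against OE normal lung, and 905 and 5 higher and 2094 and 1 lower against WT lung. It gave 1539 genes and 4 members higher against all normal lung and 1 gene lower for OE normal against WT lung. Deviations of same-numbered libraries from their group means had correlations of -0.03 to 0.03. The 2 libraries of a normal group deviate as mirror images. These values therefore cannot show whether libraries with the same number were paired, and the labels do not say.

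Leaving out each library gave 730 to 3755 genes and 0 to 10 members higher and 2266 to 5865 genes and 0 to 3 members lower against OE normal lung. Against WT lung it gave 598 to 3991 genes and 2 to 24 members higher and 1847 to 5447 genes and 0 to 2 members lower. For OE normal against WT lung it gave 0 to 208 genes higher and 0 to 82 lower, and against all normal lung 1724 to 3821 genes and 4 to 17 members higher. Members higher were fewest without OE normal 1, WT 2 and tumor 2 in the 3 tumor comparisons, and most without tumor 1. The replication minus mitotic median ranged from -0.21 to 0.20 in the tumors and from -0.36 to 0.0348 in OE normal lung. With 2 or 3 libraries a group and no read totals, small changes of genes near 1 FPKM cannot be resolved.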
